A study of Mus musculus with 12 samples.

Results

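The comparison set 3 libraries labelled Trim47-/- against 3 labelled wild type, all made from bone marrow cells labelled long-term haematopoietic stem cells (LT-HSCs) of untreated mice. These were chosen by their sample titles and are 6 of the 12 libraries of the series. The other 6 hold the same genotypes after 5-fluorouracil (5-FU), which is toxic to dividing cells, at 10 days as labelled. Neither group carried an agent or an allele beyond the Trim47 genotype named in the labels. The sources used here do not give mouse strain, age, the part of Trim47 that was deleted, the surface gate of the sort or the number of animals behind each library. Of 28999 genes in the deposited count table, 16319 passed the filter on low counts, and all of these were compared.

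LT-HSCs are the rare marrow cells that renew themselves for life and give rise to all blood lineages, and most of them rest outside the cell cycle. Trim47 encodes a tripartite-motif protein with a RING domain, the fold by which many proteins of this family attach ubiquitin to others. NF-kB is a family of dimeric transcription factors held in the cytoplasm by inhibitor proteins, and ubiquitin chains carry much of the signal that frees them. NF-kB is known to be needed for normal HSC function, and in monocytes and macrophages its activity drives chemokines, cytokines and adhesion molecules.

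Levels are given as CPM, counts scaled to library size in the usual unit of that name, and changes as log2 of Trim47-/- over wild type with a standard error (SE). A gene is said to have risen or fallen where edgeR's quasi-likelihood test gave an adjusted p under 0.05 over all genes. Total counts were 14828152 to 14885673 in wild type and 20661120 to 20703198 in libraries labelled Trim47-/-, so the latter were deeper. Mitochondrial messenger RNA took 2.41% to 2.42% of counts in wild type against 2.67% to 2.70%, and long noncoding RNA 0.570% to 0.580% against 0.488% to 0.490%. Separate animals are not named in the labels, so p-values reflect nothing beyond the variation among these libraries, which may be technical. That spread was small: between libraries of a group 9.35% to 10.9% of genes differed beyond counting noise at a level where counting alone gives 1%. The use of 179 immunoglobulin V segments correlated across segments at r = 0.988 to 0.993 within a group (6 pairs of libraries) and at 0.712 to 0.728 between groups (9 pairs).

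Trim47 RNA was present in every library. It stood at 24.6, 23.8 and 24.7 CPM in wild type and 23.7, 18.9 and 16.6 CPM in libraries labelled Trim47-/-. The groups did not overlap, but Trim47-/- replicate 1 lay close to wild type. The change of -0.31 (SE 0.115, adjusted p = 0.0632) did not pass. Without that library it did (adjusted p = 0.0046, and 0.0046 to 0.211 over the alternatives). After 5-FU, Trim47 RNA was clearly lower under the Trim47-/- label, with a mean of 11.3 CPM against 35.4 CPM for wild type. That change of -1.64 passed (adjusted p = 5.5e-07). It exceeded the untreated change by -1.34 in edgeR's test of the interaction between genotype and 5-FU (adjusted p = 3.87e-05). Counts are per gene, the deleted part is not given and a shortened RNA would still be counted, so the groups are called by their labels. Trim65, a related gene that overlaps Trim47 on the same strand, stood at 21.9, 20.5 and 19.5 CPM in wild type and 22.9, 26.8 and 25.02 CPM in libraries labelled Trim47-/-. Its change of 0.27 (adjusted p = 0.0466) passed narrowly and lost its call in 9 of 12 alternative settings (adjusted p = 0.033 to 0.145). On the minus strand of chromosome 11, Trim47 spans 116105752 to 116127210 (GRCm38). Within 500 kb of it, 10 of 37 genes tested rose and 5 fell (40.5% called, median log2 0.035), while over all of chromosome 11 33.2% of genes were called. Among these neighbours the lipid kinase gene Sphk1 fell by 0.91 and Rhbdf2, which serves the release of tumour necrosis factor, by 0.37, whereas Caskin2 rose by 0.43, Unc13d by 0.23 and the small membrane protein gene Smim6 by 0.66.

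The labelled cell type was checked against its defining markers as FPKM, which is per transcript length. Procr, the surface receptor EPCR of LT-HSCs, stood at 10.9 to 11.9 FPKM in wild type and 9.63 to 10.9 FPKM in libraries labelled Trim47-/-, and Hlf, a transcription factor of stem cells, at 11.3 to 20.1 against 15.4 to 24.9 FPKM. Slamf1, the gene of CD150 by which LT-HSCs are commonly sorted, was low in both groups, at 0.243 to 0.369 against 0.432 to 0.463 FPKM. Markers of multipotent progenitors were well above it, with Flt3 at 111 to 113 against 143 to 148 FPKM, Cd34 at 66.2 to 70.8 against 73.4 to 77.9 FPKM and Cd48 at 28.7 to 31.8 against 28.5 to 29.2 FPKM. Some defining markers of the other cell lists were also far above Procr. Elane of neutrophil granules stood at 412 to 414 against 459 to 482 FPKM. Igkc of B and plasma cells stood at 1215 to 1248 against 1236 to 1261 FPKM. Other defining markers of that list were below Procr, with Cd79a at 2.59 to 3.37 against 2.69 to 2.86 FPKM. Ms4a1 stood at 0.0401 to 0.0563 against 0.0346 to 0.0403 FPKM. No defining LT-HSC marker was at 0, but the RNA of the progenitor markers and of Elane and Igkc goes against a population of LT-HSCs alone. The name is used here as a label.

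In this setting 5392 of 16319 genes differed (33%), of which 2873 were higher (17.6%) and 2519 lower (15.4%) in libraries labelled Trim47-/-. Most changes were small. The median size among called genes was 0.33 on the log2 scale. At least 2-fold changes numbered 612 (3.75%), with 121 higher (0.741%) and 491 lower (3.01%). The larger the change, the more the balance lay to falling genes: at 1.5-fold 492 rose and 881 fell, and at 3-fold 38 rose and 244 fell. Most 2-fold changes were in genes of low level. Under 1 CPM on average over the 2 groups 52 rose and 168 fell, and at 1 to 10 CPM 59 rose and 266 fell. At 10 to 100 CPM 9 rose and 51 fell, and at 100 CPM or more 1 rose and 6 fell. Groups did not overlap in 7810 genes (47.9%), and 6929 had an unadjusted p under 0.05. Over all genes tested the median change was 0.028, and the gene lists are read against that value and these shares.

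The largest changes were sought among genes of at least 10 CPM, with groups that did not overlap and libraries within 1.5-fold in each group. Immunoglobulin and T-cell receptor segments and models with Gm or Rik names were left out. Of the genes that remained, 2031 rose and 1592 fell, and at 2-fold 6 rose and 42 fell. Acod1, which makes itaconate in activated macrophages, stood at 29.8, 28.5 and 27.4 CPM in wild type and 8.14, 6.68 and 7.18 CPM in libraries labelled Trim47-/- and changed by -1.96 (SE 0.104, adjusted p = 1.22e-07). Nlrp3, the sensor of an inflammasome, stood at 151, 149 and 141 CPM in wild type and 52.5, 48.6 and 45.7 CPM in libraries labelled Trim47-/- and changed by -1.59 (SE 0.0930, adjusted p = 2.88e-07). In both, all Trim47-/- libraries lay far below all of wild type.

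Other steep falls were in genes of several functions. Clec4e, the receptor Mincle of fungal and mycobacterial glycolipids, stood at 21.02, 23.3 and 26.1 CPM in wild type and 6.62, 7.86 and 6.74 CPM in libraries labelled Trim47-/- (-1.73). The cytokine gene Il1b stood at 18.3, 21.1 and 20.6 CPM in wild type and 7.502, 7.66 and 6.79 CPM in libraries labelled Trim47-/- (-1.45), and Traf1, an adaptor of tumour necrosis factor receptors and a known NF-kB target, at 58.7, 53.6 and 57.5 CPM in wild type and 19.02, 22.9 and 20.7 CPM in libraries labelled Trim47-/- (-1.44). These groups were well apart in each gene, as the plot of named genes shows. Pmaip1, which encodes the death-promoting BCL2 family protein NOXA, fell from 77.8 ± 3.42 CPM in wild type to 24.99 ± 0.276 CPM in libraries labelled Trim47-/- (SD, n = 3 each), a change of -1.64. Thbs1, the matricellular protein thrombospondin 1, changed by -1.47 (SE 0.0464) and Chka, choline kinase of phosphatidylcholine synthesis, by -1.38 (SE 0.0469). Errfi1, which restrains EGF receptor signalling, changed by -1.77, the inhibitory receptor gene Lilr4b by -1.66, the ARF-like GTPase gene Arl5c by -1.62 and Gzmb, granzyme B of cytotoxic cells, by -1.52. Lilr4b has near-identical relatives between which reads can be split. Kcnq1ot1, the long noncoding RNA that lies antisense in Kcnq1 and silences neighbouring imprinted genes, stood at 93.6, 97.1 and 88.3 CPM in wild type and 25.2, 22.4 and 26.6 CPM in libraries labelled Trim47-/- and changed by -1.91 (SE 0.0889, adjusted p = 4.34e-08).

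Under the same filters rises of at least 2-fold were fewer than falls, as given above. Lrrc8d, a subunit of the volume-regulated anion channel, stood at 12.6, 13.4 and 10.99 CPM in wild type and 42.02, 61.4 and 60.6 CPM in libraries labelled Trim47-/-. Its change of 2.15 (SE 0.674, adjusted p = 0.0299) was the largest rise among genes that met these filters (at least 10 CPM, groups apart, libraries within 1.5-fold in each group and the named kinds left out). Its call was lost without each of the 3 wild-type libraries, without Trim47-/- replicate 2 or 3 and with no filter on low counts (0.000156 to 0.087 over the alternatives). Eps8l1, of an actin-regulating family, stood at 15.7, 15.7 and 17.6 CPM in wild type and 39.3, 39.4 and 41.9 CPM in libraries labelled Trim47-/- and rose by 1.30 (SE 0.0744, adjusted p = 2.26e-07). Its groups were far apart and its call held in every setting tried. Sema3d, a secreted guidance factor, stood at 25.3, 28.3 and 25.6 CPM in wild type and 58.9, 58.8 and 55.5 CPM in libraries labelled Trim47-/- and rose by 1.13. Rasa3, a GTPase-activating protein that restrains Ras and Rap1 and is needed for red cells and platelets, stood at 109, 102 and 111 CPM in wild type and 234, 224 and 219 CPM in libraries labelled Trim47-/- and rose by 1.07 (SE 0.186, adjusted p = 0.0011). Of the 13 rising genes named here from this ranking, Rasa3 was the most abundant.

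The other rising genes had moderate levels and mixed functions. Hnf4a, a nuclear receptor best known from liver and gut, rose from 26.1 ± 1.08 CPM in wild type to 50.1 ± 1.86 CPM in those labelled Trim47-/- (SD, n = 3 each), a change of 0.94. Slc4a1, the anion exchanger of red cells, rose by 0.91, and the matrix protease gene Mmp2 by 0.92. Gprc5b, an orphan receptor of the G-protein-coupled kind, rose by 1.09, the somatostatin receptor gene Sstr2 by 0.98 and the thromboxane receptor gene Tbxa2r by 0.87. The peptide transporter gene Slc15a2 rose by 0.95, the potassium channel gene Kcnk5 by 0.88 and the zinc finger gene Zscan2 by 1.34. In each of these 9 genes all Trim47-/- libraries lay above all of wild type, and all 9 kept their call in every one of the 12 settings tried.

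**Figure D1:**
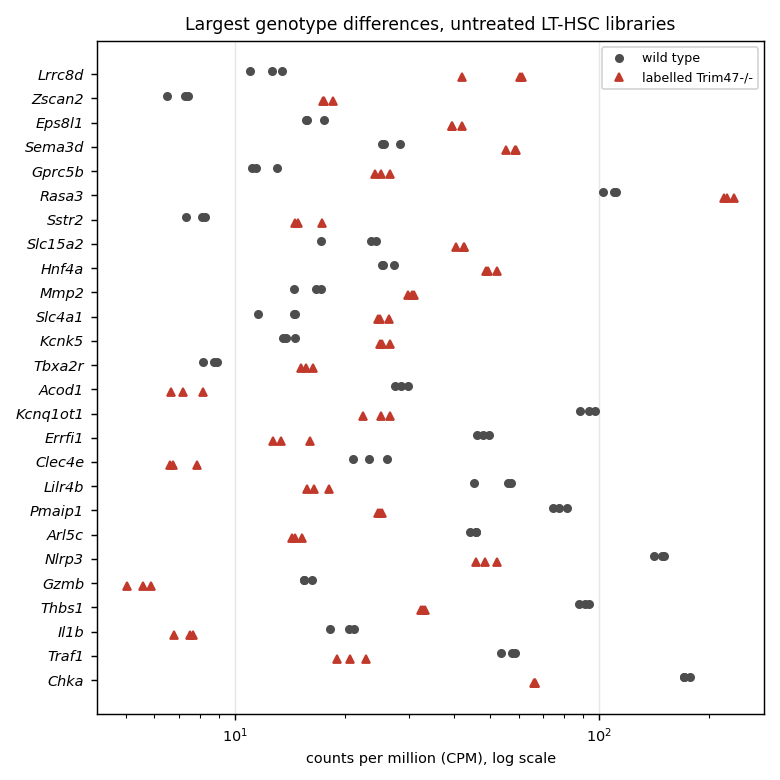
Each row is a gene and each point a library, with CPM on a log axis. Wild-type libraries and those labelled Trim47-/- are separate in every row, with wide gaps in Lrrc8d among rising genes and Acod1 among falling genes.

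The NF-kB system was lower as a group. Of 30 genes of NF-kB subunits, inhibitors and kinases, 1 rose, 17 fell and 12 did not pass, with a median of -0.23. The promoters of 4 genes that fell are shown because they carry the sequence this factor family is known to bind. The motif searched was GGG, any 2 bases and TTTCC, on both strands (read in reverse GGAAA, any 2 bases and CCC), and capitals mark it in the 250 bases before the annotated start site, printed on the strand of the gene. Cxcl2 and Ccl9 encode chemokines, Rel a subunit and Nfkbia the inhibitor IkB-alpha. The sequences are from RefSeq, build GRCm38.p6, and lie at chr5:90903649-90903898 (plus strand), chr11:83578637-83578886 (minus), chr11:23770970-23771219 (minus) and chr12:55492648-55492897 (minus).
Cxcl2: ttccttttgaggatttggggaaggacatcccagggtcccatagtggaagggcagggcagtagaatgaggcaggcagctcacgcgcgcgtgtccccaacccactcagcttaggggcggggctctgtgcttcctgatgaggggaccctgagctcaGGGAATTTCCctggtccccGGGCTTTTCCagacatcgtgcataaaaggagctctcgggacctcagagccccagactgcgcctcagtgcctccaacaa
Ccl9: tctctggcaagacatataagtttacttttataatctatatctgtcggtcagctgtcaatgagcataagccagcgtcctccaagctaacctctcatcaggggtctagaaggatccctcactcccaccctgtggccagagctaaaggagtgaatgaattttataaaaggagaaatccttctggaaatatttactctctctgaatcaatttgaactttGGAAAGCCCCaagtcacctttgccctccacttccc
Rel: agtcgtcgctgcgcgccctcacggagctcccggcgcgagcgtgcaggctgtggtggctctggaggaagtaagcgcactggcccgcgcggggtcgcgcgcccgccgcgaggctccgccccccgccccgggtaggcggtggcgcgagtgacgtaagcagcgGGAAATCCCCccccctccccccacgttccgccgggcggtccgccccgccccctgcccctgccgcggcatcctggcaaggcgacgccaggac
Nfkbia: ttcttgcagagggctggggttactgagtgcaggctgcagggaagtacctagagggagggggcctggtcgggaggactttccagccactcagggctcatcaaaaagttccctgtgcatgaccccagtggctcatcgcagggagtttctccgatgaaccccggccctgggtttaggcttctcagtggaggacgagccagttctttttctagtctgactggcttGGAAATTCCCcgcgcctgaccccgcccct
Between motif and start site lay 87 and 68 bases in Cxcl2, 25 in Ccl9, 81 in Rel and 19 in Nfkbia. In windows from 250 bases before to 50 after the start, the motif stood in 8 of 25 genes of the NF-kB list (32%) and 7 of 17 chemokine and cytokine genes (41.2%), against 221 of 10589 genes tested (2.09%) and 535 of all 32851 promoters (1.63%). It stood in 0 of 9 surface activation genes. Over these 3 lists together it stood in 15 of 51 genes (29.4%), and in 9 of the 31 that fell (29%), a like share. The motif also stood in members that did not pass, such as Tnfaip3, Traf3 and Cyld. Among all genes that fell its share was 39 of 1538 (2.54%) and among those that rose 47 of 2090 (2.25%). A match to these letters is a description and does not show binding.

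Of the subunits, all of which form dimers that bind DNA, the members of the non-canonical branch fell most. Relb stood at 63.1, 67.9 and 65.2 CPM in wild type and 34.1, 32.4 and 34.6 CPM in libraries labelled Trim47-/-, a change of -0.96 (SE 0.0502, adjusted p = 1.13e-07). Nfkb2, whose product p100 is cut to p52, stood at 299, 299 and 302 CPM in wild type and 198, 205 and 203 CPM in libraries labelled Trim47-/- and changed by -0.57 (SE 0.0209). Rel stood at 451, 474 and 457 CPM in wild type and 332, 326 and 327 CPM in libraries labelled Trim47-/- and changed by -0.49. The groups lay apart in all these genes, and also in Rela (-0.26) and Nfkb1 (-0.17), whose changes were smaller. Among inhibitors and feedback genes, Nfkbia stood at 1600.0, 1580.1 and 1582 CPM in wild type and 1349.7, 1331 and 1331 CPM in libraries labelled Trim47-/- and changed by -0.25, and the coactivator gene Bcl3 changed by -0.46. Tnfaip3, the ubiquitin-editing enzyme A20, stood at 2775, 2729 and 1584 CPM in wild type and 2161, 1074 and 1939.9 CPM in libraries labelled Trim47-/-, so its groups overlapped widely and its change of -0.45 did not pass. Nfkbiz, an atypical inhibitor, did not pass either (-0.20). Birc3, a ubiquitin ligase of the tumour necrosis factor receptor complex, changed by -0.61 and the kinase gene Ikbkb by -0.22.

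**Figure D2:**
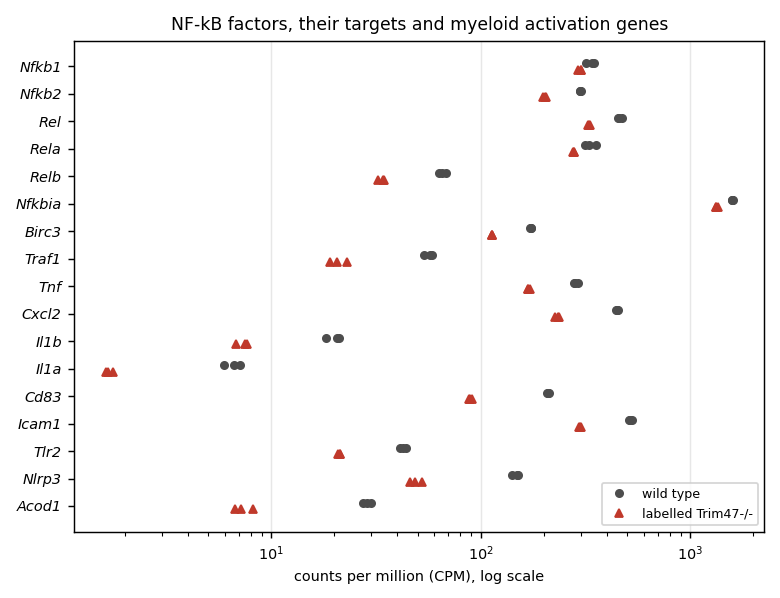
CPM on a log axis for NF-kB genes, chemokine and cytokine genes and genes of activated myeloid cells, with 1 point per library. The genes are a selection. It leaves out members of these lists that rose, and members that did not pass, such as Tnfaip3, Nfkbiz, Ccl3, Ccl4 and Casp1. Every gene shown is lower in the libraries labelled Trim47-/-, and the gaps in Il1a, Il1b, Nlrp3 and Acod1 are wider than those in Nfkb1, Rela and Nfkbia.

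Chemokines and cytokines showed the lowest median of all lists. Of 26 measured, 4 rose, 16 fell and 6 did not pass, with a median of -0.72. Their summed level was 1844 to 1859 CPM in wild type and 1307 to 1331 CPM in libraries labelled Trim47-/-. Cxcl2, a neutrophil attractant, stood at 449.8, 446 and 442 CPM in wild type and 235, 227 and 235 CPM in libraries labelled Trim47-/- and changed by -0.94 (SE 0.0304, adjusted p = 3.28e-09). Tnf, tumour necrosis factor, stood at 289.8, 281 and 279.9 CPM in wild type and 168, 171 and 168 CPM in libraries labelled Trim47-/- and changed by -0.75. Osm, oncostatin M, stood at 134, 131 and 128 CPM in wild type and 64.7, 60.4 and 58.9 CPM in libraries labelled Trim47-/- and changed by -1.09. In all 3 genes the groups lay far apart. Il1a changed by -1.96, Ccl9 by -0.70, Cxcl10 by -0.55 and the macrophage growth factor gene Csf1 by -0.38. The macrophage chemokine Ccl3 stood at 290.5, 319 and 319 against 289, 286 and 288 CPM and Ccl4 at 184, 171 and 180.1 against 169, 181 and 180.4 CPM and these did not pass (-0.11 and -0.015). Among 13 surface activation genes 0 rose and 10 fell (median -0.43), among them Cd83 (-1.23), the adhesion molecule gene Icam1 (-0.80), Plaur, the urokinase receptor gene (-0.61), and Cd69 (-0.27).

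Monocyte and macrophage markers moved with these genes. Of 19 measured, 0 rose, 8 fell and 11 did not pass (median -0.46), and their summed level was 905 to 919 CPM in wild type against 658 to 688 CPM. None of the defining markers was at 0 in either group. The inflammatory monocyte receptor gene Ccr2 stood at 25.2, 26.1 and 25.02 CPM in wild type and 12.3, 14.3 and 13.5 CPM in libraries labelled Trim47-/- and changed by -0.93. Csf1r, the receptor for M-CSF, changed by -0.67, F13a1 by -0.92, Ms4a6c by -0.96 and Mpeg1, the pore protein of phagocytes, by -0.88. Lyz2 (169, 159 and 156 against 173, 156 and 165 CPM) and Ly6c2 (79.2, 87.1 and 102 against 91.1, 93.7 and 82.2 CPM), which are also among the most abundant markers, overlapped between groups and did not pass. In bulk RNA fewer cells of a type and less RNA per cell cannot be told apart, and the part of these markers in the lower NF-kB and cytokine genes was not tested.

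Innate sensors were split. Of 23 Toll-like receptor and adaptor genes 3 rose and 7 fell (median 0.054). Tlr2, the receptor for bacterial lipopeptides, stood at 43.9, 41.3 and 42.7 CPM in wild type and 21.2, 20.9 and 21.3 CPM in libraries labelled Trim47-/- and changed by -1.01. Cd14, its co-receptor, changed by -0.88 and Ly86 by -1.24, while the kinase gene Irak4 rose by 0.24 and Myd88 did not pass (0.18). Tlr4 ranged from 0.346 to 4.78 CPM in wild type and 1.33 to 7.94 CPM in libraries labelled Trim47-/-, so no difference could be called. Of 20 inflammasome and activated myeloid genes 3 rose and 8 fell (median -0.092). Besides Nlrp3 and Acod1 these included Casp4 (-0.80), the sensor of cytosolic lipopolysaccharide, the transporter gene Slc15a3 (-1.09) and the prostaglandin synthase gene Ptgs2 (-0.49). Pycard, the inflammasome adaptor ASC, changed by only -0.15 and Casp1 did not pass (-0.084).

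The interferon system held falls and rises side by side. Of 46 interferon-stimulated genes 10 rose, 21 fell and 15 did not pass (median -0.15). Irf7, the amplifier of type I interferon, stood at 43.4, 44.4 and 46.9 CPM in wild type and 25.2, 27.4 and 24.2 CPM in libraries labelled Trim47-/- and changed by -0.81 (SE 0.0594, adjusted p = 1.67e-06). Isg15, a ubiquitin-like modifier, changed by -0.60, the antiviral genes Rsad2 and Bst2 by -0.58 and -0.53 and Ifi27l2a by -1.29. Of 12 interferon regulatory factor genes 4 rose and 5 fell. Irf8, which drives monocyte and dendritic cell fates, changed by -0.57 and Irf4 by -0.67. Of 14 genes of RIG-I-like receptor and cytosolic DNA sensing 3 rose and 5 fell (median -0.054). Trim25, the ubiquitin ligase of RIG-I and also a member of the TRIM family, stood at 274, 268 and 273 CPM in wild type and 161, 159 and 156 CPM in libraries labelled Trim47-/- and changed by -0.78 (SE 0.0290, adjusted p = 8.98e-09). Its groups were far apart. Rnf135, another ligase of RIG-I, rose by 0.52, the receptor gene Ddx58 by 0.20 and its adaptor gene Mavs by 0.27, and Irf3 did not pass (-0.062).

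The TRIM family as a whole leaned the other way from Trim25. Of 46 TRIM genes measured 17 rose, 4 fell and 25 did not pass, with a median of 0.16. Trim59 rose from 45.1 ± 0.264 CPM in wild type to 58.8 ± 1.27 CPM in those labelled Trim47-/- (SD, n = 3 each), a change of 0.38, and Trim44 rose by 0.13. Trim39 changed by -0.33 and the interferon-induced Trim30a by -0.23. Trim9, a neuronal ligase, was near the limit of detection in wild type (0.138, 0.277 and 0.00 CPM) and stood at 1.27, 0.982 and 1.17 CPM in libraries labelled Trim47-/-.

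Immediate early genes, which cells switch on within minutes of stimulation or of tissue dissociation, were abundant in both groups and did not move as a block. Of 14 AP-1 and related genes 2 rose and 5 fell (median -0.044). Fos stood at 4794, 4671 and 4628 CPM in wild type and 5098, 5045 and 5075 CPM in libraries labelled Trim47-/- and rose by 0.11 (SE 0.0132). Jun, its dimer partner, rose by 0.17, Fosb did not pass (0.051), and Junb changed by -0.091. Atf3 stood at 1709, 1709 and 1489.6 CPM in wild type and 1118, 1128 and 1098 CPM in libraries labelled Trim47-/- and changed by -0.55, and Fosl1 by -0.69. Of 21 Egr, Nr4a and Ier genes 4 rose and 9 fell (median -0.16). Egr1, also a known regulator of stem cell quiescence, stood at 2816, 2799 and 2769 CPM in wild type and 3417, 3409 and 3385 CPM in libraries labelled Trim47-/- and rose by 0.28 (SE 0.0112, adjusted p = 1.55e-08). Egr3 changed by -0.52 and Nr4a3 by -0.69, while Nr4a1 did not pass (0.094).

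Other rapid-response families held rises and falls. Among 17 MAP kinase phosphatase and ERK feedback genes 4 rose and 5 fell (median -0.040), with Dusp8 at -1.18, Dusp16 at -1.04 and Dusp1 at -0.23, and with Dusp6, the phosphatase specific for ERK, rising by 0.32. Among 14 Kruppel-like factors 1 rose and 5 fell, while their median of 0.035 lay near that of all genes. Klf2, a quiescence factor of lymphocytes and endothelium, stood at 2079, 2082 and 2081 CPM in wild type and 1774, 1778 and 1759.9 CPM in libraries labelled Trim47-/- and changed by -0.23. Klf4 changed by -0.24 and Klf6 did not pass (0.025). Of 21 mRNA decay regulators 5 rose and 11 fell (median -0.10). The deadenylase-related gene Noct changed by -0.86, Zc3h12a, the endonuclease Regnase-1, by -0.29, and Zfp36l2 rose by 0.30.

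Genes of the stem cell state leaned to rises. Of 35 LT-HSC signature genes 16 rose, 3 fell and 16 did not pass (median 0.23). Robo4, a receptor that anchors HSCs in the marrow, stood at 37.9, 35.2 and 35.9 CPM in wild type and 55.7, 56.6 and 53.95 CPM in libraries labelled Trim47-/- and rose by 0.61 (SE 0.0496, adjusted p = 3.93e-06). The groups did not overlap. Mycn rose by 0.74, the phosphatase and transcription cofactor gene Eya2 by 0.45 and Fgd5, used as an HSC reporter gene, by 0.31. Tgm2, a transglutaminase, changed by -0.60 and Selp, P-selectin, by -0.43. Vwf (0.052) did not pass, nor did Hoxb5 (1.31, 0.901 and 0.898 against 1.52, 1.42 and 2.297 CPM).

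Among 20 surface markers used to gate HSCs 11 rose and 2 fell (median 0.11). Flt3, a marker that LT-HSCs lack by the usual definition, stood at 715, 717 and 702 CPM in wild type and 899, 923 and 923 CPM in libraries labelled Trim47-/- and rose by 0.36 (SE 0.0173, adjusted p = 5.30e-08). Slamf1 rose by 0.59 from a low level (2.42, 1.59 and 1.66 against 2.79, 2.799 and 2.98 CPM), and the endothelial-type markers Emcn and Esam rose by 0.67 and 0.53. Kit and Cd34 rose by 0.085 and 0.13. Itga2b, the integrin CD41, changed by -0.33. Procr (-0.16), Ly6a (-0.15) and Cd48 (-0.11) did not pass.

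Of 28 HSC transcription factors and regulators 10 rose and 3 fell (median 0.13). Tal1, a master regulator of blood formation, stood at 65.5, 59.2 and 60.96 CPM in wild type and 95.95, 91.8 and 94.9 CPM in libraries labelled Trim47-/- and rose by 0.61. Gfi1 rose by 0.46, Lyl1 by 0.36 and Foxo3, which guards quiescence, by 0.25. Mecom (0.044), Meis1 (0.033), Gata2 (0.24), Runx1 (-0.23) and Hlf (0.56) did not pass. Of 16 Hox genes measured 7 rose, 0 fell and 9 did not pass, and the median of 0.53 was the highest of all lists. Hoxa9, the most abundant Hox gene of stem and progenitor cells named here, stood at 63.9, 64.4 and 61.2 CPM in wild type and 83.5, 82.8 and 91.5 CPM in libraries labelled Trim47-/- and rose by 0.44 (SE 0.0547, adjusted p = 0.000101). Hoxa5 rose by 0.59, Hoxa10 by 0.61 and Hoxb4 by 0.48. Of 8 GIMAP genes, GTPases of lymphocyte survival, 4 rose and 1 fell (median 0.41), Gimap8 by 0.72 and Gimap6, by far the most abundant of those named, by 0.17.

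Erythroid genes rose most often among the lineage lists. Of 30 measured 20 rose, 1 fell and 9 did not pass (median 0.38), and their summed level was 888 to 907 CPM in wild type against 1108 to 1117 CPM. Hba-a1, alpha-globin, stood at 33.3, 33.5 and 32 CPM in wild type and 57.2, 56.9 and 59.8 CPM in libraries labelled Trim47-/- and rose by 0.81 (SE 0.0348, adjusted p = 2.68e-08). Hbb-bt rose by 0.76 and the carbonic anhydrase gene Car2 by 0.39. Klf1, the master factor of late red cells, did not pass (0.21), and Tfrc, the transferrin receptor gene, fell by 0.26. Globin genes have near-identical copies, so reads can be split between them.

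Megakaryocyte and platelet genes went the other way. Of 25 measured 2 rose, 15 fell and 8 did not pass (median -0.33), with summed levels of 1579 to 1621 CPM in wild type against 1396 to 1424 CPM. Ppbp, a platelet chemokine, stood at 7.12, 7.07 and 6.43 CPM in wild type and 0.834, 0.687 and 0.684 CPM in libraries labelled Trim47-/-, a change of -3.21 (SE 0.132, adjusted p = 1.97e-08). Pf4 changed by -0.80, the integrin gene Itgb3 by -0.80 and Plek by -0.26, while Gp9 did not pass (0.28).

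Granulocyte and mast cell genes held both rises and falls. Of 23 neutrophil granule genes 11 rose and 3 fell (median 0.21). Late granule genes rose, with Ltf, lactoferrin, at 29.05, 27.4 and 27.5 CPM in wild type and 43.2, 46.4 and 47.2 CPM in libraries labelled Trim47-/- (0.70), Camp at 0.56 and Ngp at 0.51. Of the early granule genes, Ctsg changed by -0.55, Mpo by -0.13 and Elane rose by 0.17. Of 16 mast cell, basophil and eosinophil genes 2 rose and 7 fell (median -0.16), with the eosinophil granule genes Prg2 at -0.46 and Epx at -0.40 and the mast cell protease gene Cpa3 rising by 0.28.

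Lymphoid priming genes, which multipotent progenitors switch on early, leaned to rises. Of 21 measured 11 rose and 3 fell (median 0.19). Dntt, the terminal transferase, stood at 309, 319 and 311 CPM in wild type and 479, 486 and 483 CPM in libraries labelled Trim47-/- and rose by 0.63 (SE 0.0217, adjusted p = 4.91e-09). The groups did not overlap. Bcl11a rose by 0.50, the adaptor gene Lax1 by 0.49, Rag1 by 0.49 and Notch1 by 0.20, and Il7r did not pass (0.26). Of 22 B and plasma cell genes 2 rose and 5 fell (median -0.16), and of 19 T and NK cell genes 1 rose and 2 fell (median 0.022). The immunoglobulin light chain genes Iglc1 and Iglc2 changed by -1.07 and -0.35, Pax5, the factor of B-cell identity, by -0.70 and the chemokine gene Ccl5 by -0.95, while Ighd rose by 0.51 and the T-cell kinase gene Lck by 0.35. Cd79a, of the B-cell receptor, was low and overlapped between groups (5.05, 3.88 and 3.94 against 4.22, 3.98 and 4.203 CPM), while Igkc stood at 665, 682 and 669 against 681, 669 and 664 CPM. Of 18 dendritic cell and MHC class II genes 2 rose and 5 fell (median -0.20). Clec9a, the marker of cross-presenting dendritic cells, stood at 1.38, 2.49 and 2.07 CPM in wild type and 0.245, 0.246 and 0.244 CPM in libraries labelled Trim47-/-. Siglech of plasmacytoid dendritic cells changed by -1.10. Of 20 endothelial and stromal genes 10 rose and 2 fell (median 0.31), with Tie1 at 88.1, 94.9 and 93.2 CPM in wild type and 121, 120.0 and 119 CPM in libraries labelled Trim47-/- (0.38), the niche factor gene Cxcl12 at 3.67, 3.19 and 3.87 against 5.099, 6.63 and 6.402 CPM (0.76) and Pecam1 at -0.21. No defining marker of any of these lists was at 0 in a whole group, but some were near it and did not pass the filter on low counts. Over the 3 libraries of a group, Cd3e had 5 counts in wild type and 14 in Trim47-/-, and Cd8a 16 and 11. In the same order Ncr1 had 11 and 6, Ms4a1 17 and 19, and Lepr 2 and 14. The part of other cells in the results of this comparison was not tested.

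Lineage transcription factors had a median of -0.14, with 4 of 26 rising and 8 falling. Spi1, which encodes the myeloid factor PU.1, stood at 207, 188 and 201 CPM in wild type and 163, 172 and 169 CPM in libraries labelled Trim47-/- and changed by -0.24 (SE 0.0380, adjusted p = 0.000632). Cebpb changed by -0.20 and Cebpd by -0.31, while Cebpa (-0.16), Gata1 (-0.021) and Ebf1 (-0.53) did not pass. Of 30 cytokine receptor genes 7 rose and 7 fell. Il4ra changed by -0.42, Ifngr2 by -0.45 and the tumour necrosis factor receptor gene Tnfrsf1b by -0.46, while Il18r1 rose by 0.47 and Tnfrsf1a did not pass (0.11). Of 27 JAK-STAT and SOCS genes 10 rose and 3 fell (median 0.056). Socs5 rose by 0.84, Socs2 by 0.29, Stat5b by 0.22 and Jak1 by 0.20, whereas Stat3 changed by -0.19.

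Homing and adhesion receptors leaned to falls. Of 35 measured 7 rose and 14 fell (median -0.17). Cxcr4, the receptor for CXCL12 that holds HSCs in the marrow, stood at 455, 454 and 464 CPM in wild type and 301, 296 and 294 CPM in libraries labelled Trim47-/- and changed by -0.62 (SE 0.0214, adjusted p = 4.61e-09). All Trim47-/- libraries lay well below wild type. The integrin genes Itga4 and Itga5 changed by -0.17 and -0.47, S1pr2 by -0.68 and Vcam1 by -0.31, and Itga6 did not pass (0.22). Of 37 TGF-beta and BMP pathway genes 6 rose and 11 fell (median -0.10). The ligand gene Tgfb1 changed by -0.20 and the receptor genes Tgfbr1 and Tgfbr2 by -0.26 and -0.22, and the target gene Id1 by 0.11. Of 34 Notch and Wnt pathway genes 6 rose and 7 fell. Ctnnb1, beta-catenin, stood at 390.2, 247 and 389.9 CPM in wild type and 228, 236 and 249 CPM in libraries labelled Trim47-/-. Its change of -0.53 was called although the groups overlapped, and the Notch target gene Hes1 rose by 0.26.

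Cell cycle lists had medians close to that of all genes. Of 49 genes of G1/S and of DNA replication, 3 fell and 15 rose (median 0.075). Mcm2 and Mcm6 of the replicative helicase rose by 0.18 and 0.19, and Pcna did not pass (0.038). Of 41 G2/M and mitotic genes 7 rose and 3 fell (median -0.0082). This balance turned to 2 and 9 when only the 6 untreated libraries were fitted, and the sign of the median turned with scaling to library totals (0.011). Mki67, which marks cycling cells, stood at 708, 701 and 719 CPM in wild type and 603, 611 and 603 CPM in libraries labelled Trim47-/- and changed by -0.23. Of 33 cell cycle brakes and G1 regulators 9 rose and 6 fell. Txnip, an inhibitor of thioredoxin and of glucose uptake, rose by 0.64, the inhibitor gene Cdkn1c by 0.44 and the retinoblastoma relative Rbl2 by 0.38. Cdk6, a kinase that sets how readily HSCs leave quiescence, stood at 1030.5, 1034 and 1043 CPM in wild type and 744, 736 and 748 CPM in libraries labelled Trim47-/- and changed by -0.48 (SE 0.0131, adjusted p = 1.08e-09). Zbtb20 changed by -1.15, and Cdkn1a (-0.051) and Cdkn1b (-0.28) did not pass. Of 17 histone genes 0 rose and 4 fell.

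Of 29 p53 pathway genes 10 rose and 4 fell (median 0.10). Mdm2, the ubiquitin ligase of p53, changed by -0.38, while the repair gene Xpc rose by 0.32 and the ribonucleotide reductase gene Rrm2b by 0.46. Of 20 BCL2 family genes 3 rose and 7 fell (median -0.048). Bcl2l11, the death-promoting BIM, stood at 157, 184 and 192 CPM in wild type and 85.8, 112 and 89.5 CPM in libraries labelled Trim47-/- and changed by -0.89 (SE 0.133, adjusted p = 0.000399). The survival genes Bcl2 and Mcl1 fell too, by 0.26 and 0.12, so members of both kinds were lower, and Bcl2l1 did not pass (0.45). Of 36 double-strand break repair genes 8 rose and 8 fell. The large kinases Prkdc (-0.58), Atm (-0.37) and Atr (-0.29) fell, while Xrcc5, which encodes Ku80, rose by 0.41 and Rad51d by 0.33.

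The 13 mitochondrially encoded messenger RNAs all rose, by little (median 0.14). With DESeq2 size factors 10 of them rose and with only the 6 untreated libraries fitted 11, and 0 fell in either. mt-Cytb, of respiratory complex III, stood at 1968, 1943 and 1936 CPM in wild type and 2292, 2292 and 2252 CPM in libraries labelled Trim47-/- and rose by 0.23, and mt-Co1 by 0.091. Among the 76 oxidative phosphorylation genes of the nucleus, 11 fell, 4 rose and 61 did not pass (median -0.051). In the fit of the 6 untreated libraries 12 fell and 0 rose. Of 77 mitochondrial ribosomal protein genes 2 rose and 7 fell, and of 87 cytosolic ribosomal protein genes 17 rose and 1 fell (median 0.041). In the fit of the 6 untreated libraries 10 cytosolic ribosomal protein genes rose and 2 fell. Rpl22 rose from 246 ± 3.92 CPM in wild type to 305 ± 3.87 CPM in those labelled Trim47-/- (SD, n = 3 each), a change of 0.31. Ribosomal protein genes have many pseudogenes that can take their reads. Of 38 translation factors 5 rose and 10 fell, with Eif4a1 at -0.26 and Eef2 at 0.13.

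Protein quality control leaned to small falls. Of 45 proteasome subunit genes 0 rose, 11 fell and 34 did not pass (median -0.094), Psmd8 by -0.24. Of 30 genes of ER chaperones and unfolded protein sensors 4 rose and 15 fell (median -0.13). Ern1, the sensor IRE1, stood at 185, 192 and 181 CPM in wild type and 142, 148 and 148 CPM in libraries labelled Trim47-/- and changed by -0.35. Edem1 changed by -0.51 and Herpud1 by -0.33, both of ER-associated degradation, while Hspa5, the chaperone BiP, rose by 0.19. Of 28 integrated stress response genes 6 rose and 10 fell. Vegfa changed by -0.53, Mthfd2 by -0.34 and Chac1 by -0.91, while Atf4 (-0.21) and Ppp1r15a (-0.20) did not pass. Of 30 cytosolic chaperones 1 rose and 9 fell, with Hspa4 at -0.36 and Dnaja1 at -0.37, and with Hsp90aa1 not passing (-0.028).

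Metabolic genes were mixed. Of 30 glycolysis and glucose transporter genes 10 rose and 8 fell. Hk2, hexokinase 2, stood at 228, 226 and 222 CPM in wild type and 159, 151 and 153 CPM in libraries labelled Trim47-/- and changed by -0.54 (SE 0.0237, adjusted p = 2.94e-08). Pfkp changed by -0.79, Hif1a, the hypoxia factor, by -0.45 and Ldha by -0.18. Pdk1 and Pdk2, which restrain pyruvate entry into mitochondria, rose by 0.39 and 0.51. Of 32 cholesterol genes 7 rose and 5 fell, and the efflux transporter gene Abcg1 rose by 0.29. Of 32 antioxidant and NRF2 target genes 8 rose and 3 fell. Nfe2l2, which encodes NRF2, changed by -0.61 and its target Srxn1 by -0.75, while its target Nqo1 rose by 0.63 and Cat, catalase, by 0.29. Of 46 autophagy and lysosome genes 10 rose and 8 fell, and of 34 ABC transporters 7 rose and 6 fell, among them Abcg2, the efflux pump of the side population, which rose by 0.29.

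Chromatin regulators included several genes of histone methylation that fell. Of 40 DNA methylation and Polycomb regulators 11 rose and 12 fell. Tet2, which oxidises methylcytosine and is often mutated in clonal haematopoiesis, stood at 109.6, 106 and 111 CPM in wild type and 60.1, 81.1 and 64.4 CPM in libraries labelled Trim47-/- and changed by -0.67 (SE 0.131, adjusted p = 0.00238). The histone methyltransferase genes Dot1l, Kmt2c, Kmt2d and Kmt2a changed by -0.97, -0.77, -0.63 and -0.45. Dnmt3b rose by 0.29 and Ezh1 by 0.25, while Dnmt3a (-0.23) and Dnmt1 (-0.018) did not pass. Of 19 imprinted genes 6 rose and 4 fell. Besides Kcnq1ot1, Plagl1 changed by -1.39 and Peg10 by -0.93, while Igf2r rose by 0.50 and Sgce by 0.53. Across protein-coding genes, those spanning at least 100 kb fell more often than they rose (19.3% against 13.5% of 1598), while those under 10 kb rose more often (18.6% against 11.4% of 3190).

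**Figure D3:**
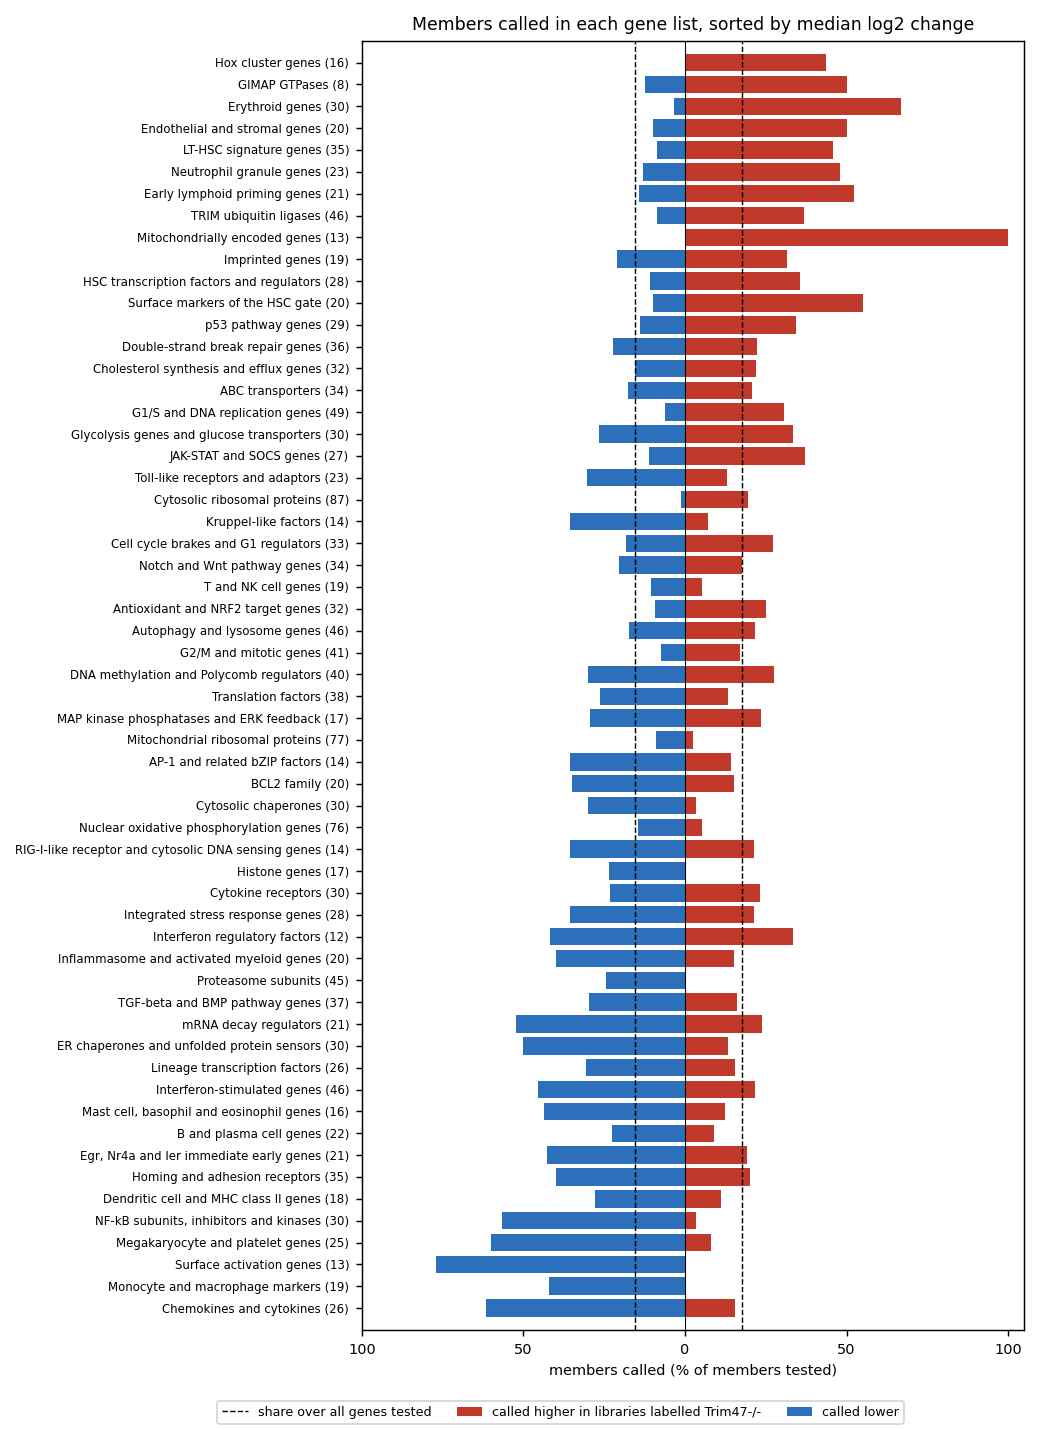
Bars give the percentage of measured members of each gene list that rose (right) or fell (left) in libraries labelled Trim47-/-, with the number measured in brackets and lists ordered by median log2 change. Dashed lines mark the shares over all genes tested, 17.6% higher and 15.4% lower. Lists of NF-kB, chemokine, surface activation and platelet genes reach far to the left and those of erythroid and mitochondrially encoded genes far to the right.

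By transcript type, the largest falls were in small gene models that lie inside other genes. Of the 491 genes that fell at least 2-fold, 257 were models of the types sense intronic and TEC (an annotation class of models that await experimental support), 141 were protein-coding and 43 were immunoglobulin V segments. Of the 121 that rose as much, 77 were protein-coding and 23 immunoglobulin V segments. Of 483 TEC models 286 fell and 16 rose (median -1.02), and of 12751 protein-coding genes 1880 fell and 2584 rose (median 0.045). Among TEC and sense intronic models, 390 lay within a protein-coding gene on the same strand, and 281 of these fell, 229 by at least 2-fold, and 2 rose (median -1.24). Of their 324 host genes 55 rose (17%) and 91 fell (28.1%), a larger share of falls than the 14.7% among all protein-coding genes, but the host median was only -0.038, and 367 of the 390 models changed to below their host. The 22 models on the strand opposite to a host had a median of 0.13, and the 127 outside protein-coding genes one of -0.12.

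The same-strand models together held 1657.6, 1642 and 1641.5 CPM in wild type and 952, 954 and 960.3 CPM in libraries labelled Trim47-/-. In both groups the libraries lay close together and far from the other group. A930004J17Rik lies in Srsf4, a splicing factor gene, on chromosome 4 at 131878628 to 131883237. It stood at 51.9, 47.7 and 54.1 CPM against 20.8, 20.5 and 21.1 CPM and changed by -1.30 (SE 0.0762, adjusted p = 2.88e-07), while Srsf4 itself changed by -0.11. Gm45221 in Picalm, a clathrin adaptor gene, changed by -1.36 and its host by -0.29. Peg13, an imprinted RNA inside Trappc9, is an exception at 304, 307 and 309.6 CPM against 301, 303 and 309.8 CPM (-0.010), and so is Gm49759 in Pkm (-0.16). After 5-FU these models summed to 742 to 756 CPM in wild type and 996 to 1024 CPM in libraries labelled Trim47-/-, the reverse order. Such models were chosen by annotated type and position after earlier results of these data were known. Whether reads from unspliced RNA of the hosts enter them was not tested.

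**Figure D4:**
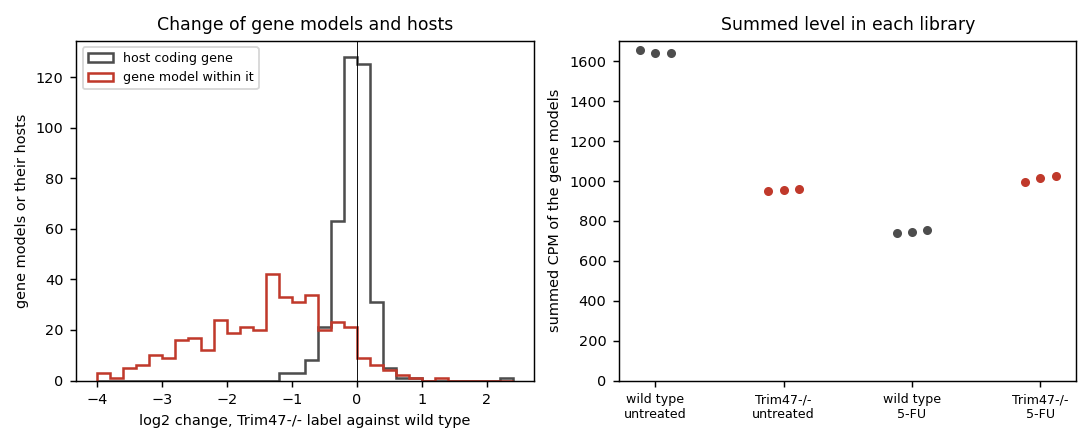
Left, numbers of TEC and sense intronic gene models inside a coding gene on the same strand, and of their host genes, by log2 change of Trim47-/- over wild type. Right, the summed CPM of these models in each of the 12 libraries. A host appears once for each of its models, and values beyond the axis are drawn at its ends. The models have a median of -1.24 and the hosts, with each counted once, one of -0.038. The summed level is highest in untreated wild type.

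Genotype differences were not alike in the untreated and the 5-FU state. After 5-FU, 54.7% of genes differed between genotypes (27.2% higher, 27.6% lower). The difference itself changed with 5-FU in 8957 genes (54.9%) by the interaction test, 26.4% toward higher and 28.5% toward lower. These pairwise comparisons share no libraries. Of 3971 genes called in both, 583 changed in the same direction and 3388 (85.3%) in opposite directions, 1806 of them higher and then lower and 1582 lower and then higher. Eps8l1 rose by 1.30 in untreated libraries and changed by -1.25 after 5-FU, an interaction of -2.55 (adjusted p = 6.26e-09). Acod1 changed by -1.96 and then by 2.93, an interaction of 4.90 (adjusted p = 8.02e-10). Nlrp3 (-1.59 and 2.45) and Chka (-1.38 and 1.60) turned in the same way. Slc15a2 is an exception among the 26 genes named for the largest changes and rose in both states, by 0.95 and 0.83. Lrrc8d, Slc4a1, Kcnq1ot1 and Il1b of these genes were not called after 5-FU.

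Several lists turned with them. Of the 30 NF-kB genes 17 fell in untreated libraries, while 17 rose and 5 fell after 5-FU, and the interaction was called in 20 genes toward higher and 3 toward lower. Of the 30 erythroid genes 20 rose in untreated libraries, while after 5-FU 1 rose and 18 fell, with interactions of 1 toward higher and 25 toward lower. LT-HSC signature genes went from 16 rising to 26 of 35 falling, and Hox genes from 7 rising to 12 of 16 falling. The 19 monocyte and macrophage markers went from 8 falling to 15 rising. Other lists kept the balance of their counts, though the interaction was called in members of each. Mitochondrially encoded genes were higher in 13 of 13 in each state, with interactions of 4 toward higher and 0 toward lower, a smaller share than the 54.9% over all genes. Of the 25 megakaryocyte and platelet genes 15 and then 16 fell, with interactions of 11 toward higher and 9 toward lower. Of the 23 neutrophil granule genes 11 and then 15 rose, with interactions of 13 toward higher and 4 toward lower. Of the 87 cytosolic ribosomal protein genes 17 and then 53 rose, with interactions of 23 toward higher and 4 toward lower. The 17 untreated rises and the 23 interactions toward higher lay near the shares over all genes, 17.6% and 26.4%. Chemokines and cytokines also held more falls than rises after 5-FU, with 12 against 7 of 26. Their interactions were 15 toward higher and 8 toward lower.

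**Figure D5:**
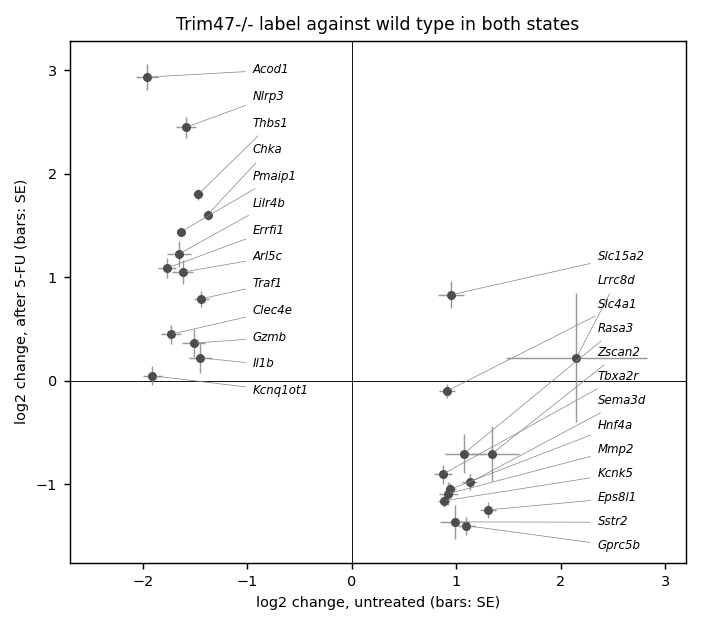
Each point is 1 of the 26 genes named for the largest changes, with the log2 change of Trim47-/- over wild type in untreated libraries on the x axis and after 5-FU on the y axis, and bars for the SE. Most genes lie in the upper left or lower right, where the direction turns. Slc15a2 lies in the upper right, and so does Lrrc8d (0.22 after 5-FU). Lrrc8d, Slc4a1, Kcnq1ot1 and Il1b were not called after 5-FU.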

How the data were processed

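RNA-seq of poly-A RNA was compared between 3 untreated wild-type and 3 untreated Trim47-/- libraries, with all 12 libraries of the series in 1 fit. Per the labels' protocols, paired-end libraries were made with a stranded mRNA kit. Tools listed in the submitters' processing notes, without their roles, are CASAVA 1.8, HISAT2, StringTie and edgeR, with the build GRCm38. The sources used here do not give the counting tool, the strand setting or the annotation release, so reads of overlapping or antisense genes and of near-identical copies may not be told apart.

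The deposited table holds, per the file headers, a whole-number count per gene and library, which the authors did not normalise, and an FPKM value. Counts divided by the deposited FPKM gave 1 length per gene (largest deviation 0.00108% over 11212 genes), so FPKM was used only for levels per length and not in tests. Of 28999 genes, 28885 identifiers were found in GENCODE M21, 28621 at identical coordinates, and 51 symbols were shared by several identifiers. Promoter sequences are RefSeq's for GRCm38.p6.

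Tests on the counts used edgeR 4.0.16 with R 4.3.3 (TMM scaling, the default filter on low counts, 1 mean per group, quasi-likelihood test, Benjamini-Hochberg adjustment over 16319 genes). Genes were called at an adjusted p under 0.05. The biological coefficient of variation was 9.62%. The procedure was tested on simulated counts. Named genes were Trim47, Trim65, the 14 genes that rose most and the 14 that fell most among called genes of at least 10 CPM, with groups that did not overlap and libraries within 1.5-fold in each group, the marked members and the 6 of smallest p in each of 58 lists, and the genes within 500 kb of Trim47. Immunoglobulin and T-cell receptor segments and models with Gm or Rik names were left out of the ranking. Some genes that this rule names are not reported here, which leaves 13 in each direction. The members, lists and tests were chosen with earlier results of these data known. Lists are described by counts and medians, with no test of a list. Alternatives were DESeq2 size factors, library totals, no filter, the replicate block, only the 6 untreated libraries, each library left out, the DESeq2 1.42.0 test, an adjusted p under 0.01 and a 2-fold threshold. Genes within 1.5-fold in each group and protein-coding genes alone were added after seeing the data. Deviations of same-numbered libraries from their group means correlated at -0.091, -0.071 and -0.088 over 10035 genes. Those of differently numbered libraries correlated at -0.024 to 0.106. No pairing by replicate number was seen, but with 3 libraries per group these values cannot show that none exists. Table work used Python 3.11.15, numpy 2.4.6, scipy 1.17.1 and pandas 2.3.3, and matplotlib 3.10.9 drew the plots.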

Additional observations from a re-analysis of the deposited data

Results flagged for a closer look

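Of the 28 genes examined (Trim47, Trim65 and 26 named for the largest changes), 22 are given here because they were called in opposite directions in the untreated and the 5-FU comparison and the interaction test of edgeR found these differences to differ from each other. The interaction is the log2 difference after 5-FU minus that in untreated libraries.

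The interaction was negative in 11 genes that were higher in untreated libraries labelled Trim47-/-. Its values were Trim65 -0.879, Zscan2 -2.05, Eps8l1 -2.55, Sema3d -2.11, Gprc5b -2.49 and Rasa3 -1.78. For the rest they were Sstr2 -2.35, Hnf4a -1.99, Mmp2 -2.01, Kcnk5 -2.04 and Tbxa2r -1.77.

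It was positive in 11 genes that were lower in untreated libraries labelled Trim47-/-. Its values were Acod1 4.9, Errfi1 2.86, Clec4e 2.18, Lilr4b 2.88 and Pmaip1 3.08. For the rest they were Arl5c 2.67, Nlrp3 4.03, Gzmb 1.88, Thbs1 3.27, Traf1 2.23 and Chka 2.99. Outliers within a group could not be examined with 3 libraries per group.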

How the results depend on the processing

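Of 16319 genes tested, 5392 were called, 2873 higher and 2519 lower. At an adjusted p under 0.01, 3391 were called, 1615 higher and 1776 lower, and at 2-fold 612 were called, 121 higher and 491 lower. Leaving out each library in turn gave 4551 to 4652 called genes, 2325 to 2462 higher and 2189 to 2226 lower. The replicate block gave 5188 (2742 higher, 2446 lower), although no pairing by replicate number was seen. Lower genes outnumbered higher ones under these 2 stricter thresholds and under 3 other settings, with 2717 against 2567 for DESeq2 size factors, 2333 against 1988 for the DESeq2 test and 2712 against 2324 for the 6 untreated libraries alone, so the balance of small changes is not settled, and the cause was not tested. Scaling by library totals gave 3266 and 2298. The median over all genes was 0.028, 0.012 with DESeq2 size factors and 0.048 with library totals. The interaction was called in 8957 genes and in 8556 to 8684 with single libraries left out, and the replicate block gave 8827.

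Of 28 genes examined in 12 settings, 25 kept their call or its absence, and the exceptions were Trim47, Trim65 and Lrrc8d. The sign of a list's median turned with scaling in 4 lists: G2/M and mitotic genes, antioxidant genes, autophagy and lysosome genes, and DNA methylation and Polycomb regulators. With 3 libraries per group and no named animals, differences between single RNA sources cannot be told apart from genotype. Low genes such as Tlr4, Hoxb5 and Trim9 rest on few counts.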
